A study of Mus musculus with 6 samples.

Results

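The small RNAs that stayed in solution when phosphorylated tau was pulled out of mouse hippocampus were ranked here by their brightness on the array. The members are all 14192 small RNA probes in the green (Cy3) channel, which is 14192 of the 28384 probe signals of an array's 2 channels, and the 2380 RNAs that could be named from 5637 of these probes. Every probe was ranked by its green processed signal within its own array, and no probe was chosen by its value. The order is one of brightness: signal depends on the probe and on how well an RNA takes the dye, so a brighter RNA is not shown to have more molecules.

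The tissue was hippocampus of wild-type (WT) mice and of the PS19 line, whose transgene encodes human P301S tau; it was homogenised and crosslinked with ultraviolet light. Complexes were captured on magnetic beads with an antibody to tau pS396, a phosphorylated serine, and 1 ug of RNA from the supernatant and 1 ug from the pull-down were labelled with Cy3 and Cy5 and hybridised to the same array. There were 3 arrays of each genotype, 6 in all. The labels give neither the promoter of the transgene, nor age, nor how many animals a sample holds, so any p-value measures the spread between these samples. No array had swapped dyes. Fraction and dye therefore cannot be told apart.

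MicroRNAs are short guides that direct Argonaute proteins to messenger RNAs, and they are cut from hairpin precursors. Transfer RNA fragments come from cleavage of tRNAs. The tiRNAs arise from a cut in the anticodon loop, which cells make under stress, while tRF5 and tRF3 are shorter pieces from the 5′ and 3′ ends. Small nucleolar RNAs (snoRNAs) guide chemical modification of other RNAs. Neurons are known for abundant miR-124, miR-9, miR-128 and let-7.

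Sequences of the brightest mature microRNAs are printed beside those of low-ranked neural and let-7 microRNAs, because brightness and guanine content are compared further on. Guanine made up 40.9% to 61.9% of the 6 bright sequences, 21.7% of mmu-miR-9-5p and 18.2% of mmu-miR-125b-5p, but 40.9% of mmu-let-7c-5p, as much as in mmu-miR-3474. Sequences are from the RefSeq table of build GRCm38.p6, 5′ to 3′, with the seed (bases 2 to 8, which pair with targets) in capitals. The first 6 are the brightest with a sequence in that table.
mmu-miR-7078-5p: uGUGGGUGguaggagacgcu
mmu-miR-3473g: cAAAAGUGaggcuggggaga
mmu-miR-3474: cCCUGGGAggagacguggauuc
mmu-miR-7082-5p: uACGGGCAggaggaggggagg
mmu-miR-1892: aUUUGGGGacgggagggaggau
mmu-miR-7011-5p: aGGAGGAUgggagagggaggugu
The next 4 are neural or let-7 family members that lay low in the ranking.
mmu-miR-9-5p: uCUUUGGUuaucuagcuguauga
mmu-let-7c-5p: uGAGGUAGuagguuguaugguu
mmu-let-7a-5p: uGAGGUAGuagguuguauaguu
mmu-miR-125b-5p: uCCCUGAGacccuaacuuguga

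These 6 bright microRNAs lie inside annotated protein-coding genes. mmu-miR-7078-5p is at chr8:117459270-117459289 (plus strand) in the span of Cmip, and mmu-miR-3473g at chr2:126902290-126902309 (minus strand) in that of Sppl2a. The others are at chr2:158638583-158638604 (plus) in Actr5, chr9:21075563-21075583 (minus) in Raver1, chr12:54645943-54645964 (minus) in Sptssa and chr3:88440924-88440946 (minus) in Sema4a. Whether they lie in an exon or an intron was not determined here.

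The array-wide facts that touch the ranking are few. Between 35.5% (PS19 2) and 63.2% (PS19 1) of probes were well above background in green, 4229 probes (29.8%) were so on all 6 arrays, and no probe was saturated. Copies of one spike-in probe on an array varied by a median SD of 0.0804 to 0.31 on the log2 scale. Outlier spots numbered 3 to 76 per array and were most frequent on WT 2. They kept their place in the order but their rank is not given. By scan time the arrays fell into 4 scans: one of WT 2 with PS19 1, one of PS19 2 with PS19 3, and one each for WT 1 and WT 3. Signals that are not well above background have no order among themselves.

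The top of the ranking held a pair of mature microRNAs, mmu-miR-7078-5p and mmu-miR-3473g. mmu-miR-7078-5p ranked 5 on WT 1 and 1 on each of the other arrays. Its log2 signal above the median probe was 12.11, 13.42 and 12.50 on WT 1 to WT 3 and 13.09, 13.55 and 13.11 on PS19 1 to PS19 3, a mean of 12.96 ± 0.55 (SD, n = 6). mmu-miR-3473g ranked 1, 2 and 3 on WT 1 to WT 3 and 2 on every PS19 array, with a mean of 12.82 ± 0.55 (SD, n = 6). mmu-miR-7078-5p was the brighter on 5 of 6 arrays, and their mean log2 signals differed by less than the SD of either. Each has 5 probes, which agreed within 0.13 and 0.08 on the log2 scale. Together they carried 5.94% (WT 3) to 20.4% (PS19 2) of the summed signal of all named RNAs.

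Behind them came longer RNAs, each measured with 1 probe. The predicted snoRNA Gm23175 ranked 10, 3 and 24 on WT 1 to WT 3 and 3 on each PS19 array, with a mean log2 signal above the median probe of 12.47 ± 0.93 (SD, n = 6). Gm24794, annotated as a pseudogene, ranked 2, 4 and 31 on the WT arrays and 4 on each PS19 array. WT 3 was the low array for both. The tRNAs Asp-GTC-2 and Asp-GTC-1 ranked 5 to 21 on 5 arrays and 3 to 37 on 4 arrays. These are copies of the tRNA that carries aspartate, near-identical genes whose signals a probe may not separate. The snoRNAs Gm26147 and Gm22268 ranked 6 to 27 on 5 arrays and 9 to 38 on 4 arrays.

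The rest of the 15 brightest were 6 mature microRNAs and 1 tRNA fragment. mmu-miR-3474 ranked between 2 and 15 and mmu-miR-5112 between 4 and 16, each on 4 arrays. mmu-miR-7082-5p ranked 6 to 24 on 5 arrays, mmu-miR-1892 ranked 13 to 30 on 6, mmu-miR-7011-5p 6 to 42 on 5 and mmu-miR-7241-3p 10 to 20 on 4. The 5' tiRNA of an alanine tRNA, 5'tiRNA-35-AlaAGC-1, ranked 44 on WT 1, 8 on WT 3, 17 on PS19 2 and 15 on PS19 3. Among neighbours in this order, only mmu-miR-3473g over Gm23175, mmu-miR-3474 over mmu-miR-5112 and mmu-miR-7082-5p over mmu-miR-1892 kept their order on every array that measured both (6, 4 and 5 arrays). mmu-miR-7011-5p was brighter than 5'tiRNA-35-AlaAGC-1 on all 4 arrays with both, although their median ranks were both 16. The 5 probes of mmu-miR-7011-5p spread over 4.26 on the log2 scale, so its place depends on which probe is taken.

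Signal was concentrated in few RNAs, but to a different degree on each array. The 10 brightest carried 28.1%, 58.5% and 22.0% of the named signal on WT 1 to WT 3 and 59.0%, 55.5% and 47.3% on PS19 1 to PS19 3. WT 1 and WT 3 were the low arrays. The 100 brightest carried 79.6% to 87.2%. Mature microRNAs held 36.0% (WT 1) to 72.4% (WT 3) of it, and snoRNAs held 6.32% (WT 3) to 21.1% (WT 1).

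Among classes, mature microRNA and tRNA fragment probes lay above the others and probes for precursors, tRNAs and transcripts lay below. The median mature microRNA probe was at percentile 50.6, 54.6 and 56.6 on WT 1 to WT 3 and 55.2, 56.2 and 56.2 on PS19 1 to PS19 3, where 100 is the brightest. It exceeded the median of all other probes by 20.1 ± 9.52 percentile points (SD, n = 6), on 6 of 6 arrays. The median tRNA fragment probe lay at 55.1 to 60.8 and exceeded the others by 10.04 ± 2.46 points (SD, n = 6), again on 6 of 6. The precursor, tRNA and transcript probes were at 44.0 on WT 1 and at 14.03 to 21.6 on the other arrays, and fell below the others by 32.6 ± 12.6 points (SD, n = 6), on 6 of 6. Each difference had an adjusted p of 0.03125 in an exact two-sided sign-flip permutation test over the 6 arrays, the smallest that 6 arrays allow. The arrays share their probes, so this tests only that the order holds from array to array.

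The place of the tRNA fragments depended on which probes were ranked. Of the mature microRNA probes 35.2% were well above background on all 6 arrays, against 32.1% of the fragment probes and 8.87% of the precursor, tRNA and transcript probes. Within the 4229 probes that passed this filter, mature microRNA probes stayed above the others by 11.5 points, but tRNA fragments lay below them (class minus others -16.2 points, adjusted p = 0.046875 for both, exact sign-flip permutation test, n = 6). The precursor, tRNA and transcript probes then differed by 2.33 points (adjusted p = 0.90625, exact permutation test).

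The named RNAs, those in the authors' deposited table, were a bright subset of the array. Their probes had a median percentile of 79.5 to 80.0, against 30.4 to 30.9 for unnamed probes. Among the named, none of 10 classes passed the exact sign-flip permutation test after adjustment. The lowest unadjusted p in it was 0.0625, for tRF3 (6.33 points above the others, on 5 of 6 arrays, adjusted p = 0.520833). The smallest unadjusted p that 6 arrays allow in this test is 0.03125. Unless most of the 10 classes reached it, no class could pass after adjustment. The test therefore cannot decide whether single classes differed from the rest. snoRNAs, tRNAs, precursor microRNAs and other transcripts were at percentiles 78.5, 77.5, 74.9 and 76.6 on WT 1. On the other 5 arrays they lay at 41.5 to 51.1, 37.9 to 59.9, 28.3 to 48.3 and 49.0 to 50.5, so WT 1 did not overlap with the others in any of these 4 classes.

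By median rank, mature microRNAs made up 63 of the 100 brightest named RNAs, against 47.6% of all named. Within arrays they held 40, 49 and 67 of the top 100 places on WT 1 to WT 3. On PS19 1 to PS19 3 they held 50, 64 and 63. They were no majority on WT 1. RNAs with an outlier spot kept a place but are not counted, and such spots numbered 76 on WT 2 and 47 on PS19 1. The counts therefore do not show whether mature microRNAs held most of the 100 places on those 2 arrays. Among the RNAs ranked there, the next largest class held 9 on either array. Of the 100 brightest probes, all named, 93 were mature microRNA probes, which are 9709 of all 14192 probes and number up to 5 for an RNA. The other members of the 100 by median rank were 9 snoRNAs, 7 tRF5, 6 other transcripts, 5 precursors, 4 tRF3, 3 tRNAs, 2 3' tiRNAs and 1 5' tiRNA. No mitochondrial fragment was among them by median rank, yet 9 were in the top 100 on WT 2 and 9 on PS19 1, the arrays of one scan, and 0 on each of the other arrays.

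Of the precursor hairpins the brightest was mmu-mir-1960, at ranks 4, 48, 43 and 57 on WT 1, WT 3, PS19 2 and PS19 3. mmu-mir-7020, mmu-mir-3971, mmu-mir-6337 and mmu-mir-7071 followed at median ranks 50.5, 53.5, 65.5 and 75, from 2 to 5 arrays each. The next snoRNAs were Gm25261 and Gm25490, at median ranks of 43 and 51. The brightest of the other transcripts after Gm24794 were Gm23746, Gm24411, Gm24548 and Mir1949, the last with a value on 2 arrays only, rank 6 on WT 1 and 150 on PS19 3. Mir1949 has the symbol of a microRNA gene and was counted in this class because it is listed under a transcript name. After the aspartate tRNAs came the tRNAs Ser-GGA-1, chrM.tRNA15-ProTGG of the mitochondrion and Gly-CCC-5, at median ranks 67, 192.5 and 245.5.

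By median rank over the arrays, fragments of aspartate tRNAs led among the tRNA pieces, but not on every array. The 15 named Asp fragments had a median rank of 299, and 5 of them were in the 100 brightest, among them tRF3a-AspGTC-3 at ranks 61, 80 and 28 on WT 1 to WT 3 and 99, 29 and 28 on PS19 1 to PS19 3. This pattern was shared by tRF3a-AspGTC-4 and tRF3b-AspGTC-3 (ranks 30 to 127 and 51 to 157), from the same kind of tRNA. The serine fragment tRF5-20-SerAGA-3 was the brightest tRF5, at ranks 16 to 57 on 5 arrays and 491 on WT 3. Of the 85 cysteine fragments 5 were also in the 100 brightest, and tRF5-22-CysGCA-22 held between ranks 87 and 108 on all arrays. tRF5-22-CysGCA-10 and tRF5-22-CysGCA-28 lay at 56 to 98 and 79 to 119. Fragments of tyrosine tRNAs (15 members, median rank 316.5) and phenylalanine tRNAs (8 members, 523) were next, and glutamine fragments were the dimmest (26 members, 1639). Tyrosine fragments had a brighter median than aspartate fragments on WT 1 (388 against 460), WT 2 (327 against 417) and PS19 1 (302 against 413). Aspartate fragments were the brighter on the other arrays. Asparagine fragments were the dimmest on WT 2 (2082) and PS19 1 (1794), and threonine fragments on WT 3 (1713). Fragments of one tRNA share sequence and are not independent.

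Among the remaining kinds, the lysine and methionine fragments tRF3a-LysCTT-10 and tRF3a-MetCAT-5 ranked 68 to 149 and 140 to 269. The 5' tiRNAs 5'tiRNA-35-PheGAA-1 and 5'tiRNA-34-PheGAA-1 ranked 40 to 262 and 47 to 354, with WT 2 and PS19 1 the dimmest arrays for both. The 3' tiRNAs 3'tiRNA-41-AsnGTT-1 and 3'tiRNA-40-AspGTC-3 ranked 46 to 151 and 58 to 188. The brightest mitochondrial piece by median rank, mt-3'tiRNA-38-ValTAC, ranked 60 on WT 2 and 64 on PS19 1 but 231, 519 and 169 on WT 1, WT 3 and PS19 3, and 2336 on PS19 2.

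Forms of a tRNA fragment that differ by 1 nucleotide in length could lie far apart in the ranking. Each form was measured with its own 1 probe, so length and probe cannot be told apart. The 35-nucleotide 5' tiRNA of Ala-AGC-1 had a median rank of 16, while the 34-nucleotide form from the same tRNA, 5'tiRNA-34-AlaAGC-1, ranked 2174, 2069 and 389 on WT 1 to WT 3 and 2308, 323 and 244 on PS19 1 to PS19 3. Across the 4 arrays with both, the longer was brighter by 5.42 to 9.74 on the log2 scale. 5'tiRNA-35-PheGAA-1 exceeded its 36-nucleotide form by 2.05 to 6.86 (longer minus shorter between -6.86 and -2.05). Most such pairs were alike: over 127 pairs the median absolute difference was 0.23, 12 exceeded 1 and 3 exceeded 3.

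The labelled tissue was checked against known microRNAs. The let-7 list was drawn from the named RNAs, so all 8 of its members had a name from the start. The microglial list was not counted among the brain lists here. Of 35 listed neuronal, astrocyte, oligodendrocyte and let-7 microRNAs, 19 were among the named RNAs. Their median rank was 1998.5 of 2380, 3 were in the brighter 50% and 0 in the 100 brightest. Of 22 listed microRNAs of muscle, liver, pancreas and embryonic stem cells, 16 were named, at a median rank of 1747.5, with 2 in the brighter 50% and 0 in the 100 brightest. The brightness order therefore did not set brain microRNAs above those of other tissues. No identity of the tissue is read from it.

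The neuronal miR-124-3p ranked 1876, 2094 and 662 on WT 1 to WT 3 and 2224, 924 and 645 on PS19 1 to PS19 3, with WT 1, WT 2 and PS19 1 low. miR-9-5p had a median rank of 2352 and was well above background on 2 arrays. The brightest neural members were let-7e-5p at a median rank of 846 (601 to 996), let-7k at 861.5 (719 to 1002) and miR-7a-5p at 925 (653 to 1566). Of the other 6 let-7 members named, the brightest 4, let-7c-5p, let-7a-5p, let-7b-5p and let-7d-5p, lay at median ranks 1885, 1952, 2031.5 and 2052. miR-138-5p, miR-129-5p, miR-9-3p and miR-132-5p had median ranks of 1382.5, 1426, 2120.5 and 2170.5, and the glial miR-125b-5p, miR-125a-5p, miR-219a-2-3p and miR-338-5p 2119, 2317.5, 1334.5 and 1998.5. Of the microglial list only miR-155-5p was named (636), and of the blood list only miR-144-5p (1195).

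MicroRNAs known from other tissues covered much the same ranks. The stem cell microRNA miR-290a-5p ranked 349 to 533 on all arrays, above every listed brain microRNA by median rank (450). The muscle microRNA miR-206-3p had a median rank of 1075.5, and miR-499-5p, miR-208a-3p, miR-208b-3p and miR-133b-3p 1569, 2042.5, 2266 and 2313. The pancreatic miR-217-5p, miR-216b-5p, miR-216a-5p and miR-375-3p lay at 1442.5, 1735, 1847 and 2125. The choroid plexus microRNA miR-200a-3p was at 1089, and miR-34b-5p, miR-200b-3p and miR-449a-5p at 1858.5, 2136.5 and 2182.5. The stem cell list had 7 named members. After miR-290a-5p, miR-367-3p, miR-293-3p, miR-292a-3p, miR-302a-3p and miR-302d-3p lay at 1520, 1740.5, 1741.5, 1753.5 and 2049. The dimmest member was miR-294-3p at 2314.5.

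Brightness of mature microRNAs followed the guanine content of their sequence. A sequence was matched for 987 of 1133. The Spearman correlation of brightness with the share of guanine was 0.557 to 0.58 on the 6 arrays. That with uracil was -0.529 to -0.366, that with cytosine -0.371 to -0.321 and that with length -0.0226 to 0.00724. Each array's value covers those of the 987 that had a rank there, so RNAs with an outlier spot, some of them among the brightest, were left out. The median guanine share fell from 45.5% through 39.1%, 32.6% and 28.6% to 23.8% over 5 groups of equal size from the brightest to the dimmest. In the 141 precursors with a hairpin sequence the correlation with guanine was 0.0905 to 0.273. These are descriptions over RNAs that share an array, and what part sequence plays in the signal was not tested.

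The brightest sequences printed above share short purine runs. The letters GGGAG, chosen after the sequences were seen and searched on the microRNA strand alone, occur in 31 of the 50 brightest (62%), in 83 of 987 (8.41%) and in 0 of the 198 in the dimmest of those 5 groups. Of all 1679 mature sequences of the table, 86 (5.12%) hold them. GGAGA, which can overlap GGGAG by 4 bases, occurs in 42% of the 50 brightest, 7.9% of the 987 and 1.01% of that dimmest group. The 50 brightest held 50 different seeds, so no seed family was represented by more than 1 member.

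The order of the probes was similar but not the same on the 6 arrays. Over all probes the Spearman correlation between arrays had a median of 0.833 over 15 pairs (0.773 to 0.925), and Kendall's W was 0.862. Over the 4229 probes well above background on all arrays it was 0.888 (0.76 to 0.984), and over named RNAs 0.809 (0.627 to 0.974). Within classes the median was 0.866 for mature microRNA probes, 0.806 for tRNA fragments and 0.524 for precursor, tRNA and transcript probes.

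Among named RNAs, arrays of one scan ranked more alike than arrays of different scans. WT 2 and PS19 1 correlated by 0.974 and PS19 2 and PS19 3 by 0.914, while the 13 pairs from different scans lay between 0.627 and 0.837. WT 3 had the lowest median correlation with the other arrays, 0.674, against 0.78 to 0.811 for the other 5. This was not so for every set: over mature microRNA probes the 2 pairs of one scan reached 0.865 and 0.927, within the 0.829 to 0.941 of the others.

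Of RNAs with a rank on every array, 24 were in the 100 brightest on all 6 arrays and 110 on at least 1. The 24 were 20 mature microRNAs, among them mmu-miR-7118-5p, mmu-miR-7045-5p, mmu-miR-6973b-5p, mmu-miR-1897-5p and mmu-miR-483-5p, and Gm23175, Gm24794, tRF3a-AspGTC-3 and tRF5-22-CysGCA-10. With outlier spots kept, 49 were in the 100 brightest on all 6 arrays. When RNAs without a rank on some arrays were counted too, 162 were in the 100 brightest on at least 1. The median range of rank over the arrays was 162.5 in the brightest of 5 groups of named RNAs and 420, 677, 726 and 582 in the following groups. The log2 signal went the other way: its median SD between arrays was 0.88 in the brightest group and 0.55, 0.52, 0.48 and 0.51 in the following ones.

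The 8 narrowest ranges among RNAs well above background on all 6 arrays belonged to 6 mature microRNAs, 1 snoRNA and 1 tRF5. After mmu-miR-3473g (range 2) and mmu-miR-7078-5p (range 4), mmu-miR-1231-5p ranked 33 to 42 and mmu-miR-1892 had a range of 17. Gm23175 and tRF5-22-CysGCA-22 each had a range of 21, and mmu-miR-7050-5p and mmu-miR-7005-5p ranked 22 to 46 and 29 to 55. The probes of mmu-miR-7005-5p nevertheless spread over 4.37 on the log2 scale. Over 961 RNAs with several probes the median spread was 0.79, and it exceeded 3 for 63.

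Among RNAs well above background on all 6 arrays, WT 2 and PS19 1, the arrays of one scan, were among the dim arrays for the 8 with the widest ranges. Without that limit the widest range, 2276, was that of mt-3'tiRNA-38-ValTAC, for which these were the brightest arrays. mmu-miR-467d-5p, of a rodent microRNA cluster, ranked 2167, 2334 and 371 on WT 1 to WT 3 and 2365, 238 and 186 on PS19 1 to PS19 3. An RNA counted as well above background where at least 1 of its probes was. The 2 probes of mmu-miR-467d-5p spread over 3.29 on the log2 scale. Their mean lay below the median probe on WT 2 and PS19 1 (log2 -0.44 and -1.55). Its low ranks there are therefore not shown to be free of signals near background. The asparagine fragments 5'tiRNA-35-AsnGTT-5, 5'tiRNA-36-AsnGTT-5 and 5'tiRNA-37-AsnGTT-5 ranked 2126 to 2287 on WT 2 and PS19 1 and 127 to 566 on the other 4 arrays. The arginine fragments tRF5-18-ArgCCG-1, tRF5-22-ArgCCG-1 and 5'tiRNA-37-ArgTCT-4, like 5'tiRNA-34-AlaAGC-1, were at 1718 to 2308 on WT 1, WT 2 and PS19 1 and at 136 to 607 on the other 3. Of 1602 RNAs with 6 ranks that were well above background on all arrays, 209 had a range above 1000. Of these, 86 were dimmer on both WT 2 and PS19 1 than on WT 3, PS19 2 and PS19 3, and 55 were brighter. The array farthest from an RNA's median rank was WT 3 for 94 of the 209 and WT 1 for 47. The part of the scan in these ranks was not tested.

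The ranking of the supernatant resembled that of the pull-down on the same array. The Spearman correlation between the channels over all probes was 0.868 to 0.931. The median percentile of tRNA fragment probes was higher in the supernatant by 2.4 ± 1.34 points (SD, n = 6), on 6 of 6 arrays, and that of precursor, tRNA and transcript probes was lower by 3.1 points (supernatant minus pull-down -3.1 ± 2.47, SD, n = 6), on 6 of 6 (adjusted p = 0.046875 for both, exact sign-flip permutation test). Mature microRNA probes differed by 0.0658 points (adjusted p = 0.6875, exact permutation test). The top RNAs did not pass in the fit below: the log2 ratio of supernatant over pull-down was -0.31 (SE 0.24) for mmu-miR-7078-5p and -0.10 (SE 0.20) for mmu-miR-3473g (limma, adjusted p = 0.534 and 0.8).

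Few single RNAs differed between the fractions. In limma on the log2 ratio of supernatant over pull-down, centred on each array's median and tested against 0 over 4005 RNAs and unnamed probes, 10 (0.25%) were higher and 8 (0.2%) lower in the supernatant at an adjusted p under 0.05. At an unadjusted p under 0.05 they were 531 and 84. That imbalance depended on the normalisation: with loess within the array the unadjusted counts were 264 and 227. Centring used all RNAs and unnamed probes, and the 4005 tested kept a median ratio of 0.18, with 2861 above 0. The 7 named RNAs that were higher were all tRNA pieces: the 3' tiRNAs 3'tiRNA-41-ValCAC-7 and 3'tiRNA-42-GlyACC-1, the tRF3 tRF3b-ValAAC-4 and tRF3b-ValCAC-6, the mitochondrial mt-tRF5-20-SerTGA and mt-tRF5-20-MetCAT, and 5'tiRNA-30-LysCTT-10. Their log2 ratios were 1.08 to 1.70, above 0 on 6 of 6 arrays, with adjusted p of 0.0488 to 0.0493. tRNA fragments were 817 of the 2380 named RNAs, and the other 3 called higher were unnamed probes. None of the 10 remained called with the scan as a random block, with the replicate block or with normexp background correction, each of which left 0 higher. Without WT 1 or without WT 3 there were also 0, 1 without WT 2 or PS19 3, 2 without PS19 1 and 18 without PS19 2.

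For example, 3'tiRNA-42-GlyACC-1 had a supernatant signal of 509, 18054 and 1249 on WT 1 to WT 3 and 10508, 995 and 2814 on PS19 1 to PS19 3, against 161, 3233 and 528 and 1975, 599 and 1248 in the pull-down. The supernatant was the brighter on every array, and both channels were highest on WT 2 and PS19 1.

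The 8 that were lower included RNAs bright in the pull-down and not well above background in the supernatant on any array. mmu-miR-206-5p, the minor arm of the muscle microRNA hairpin, had a supernatant signal of 10.9 to 144 and a pull-down signal of 177 to 1314. It was at least 5.94-fold lower in the supernatant (adjusted p = 0.000356). The snoRNA Gm23803 and mmu-miR-7116-3p were at least 6.56-fold and 3.98-fold lower (adjusted p = 0.000138 for both), 5'tiRNA-37-AsnGTT-2 at least 5.12-fold (adjusted p = 0.0118) and Gm22193 at least 3.79-fold (adjusted p = 0.0488). These bounds set the pull-down mean against the lowest supernatant signal well above background on each array, or the RNA's own where higher. They were computed after loess normalisation within the array and quantile normalisation between arrays. The signals quoted for mmu-miR-206-5p and the adjusted p come from data without these 2 steps. The bounds are open to dye bias. The pull-down was well above background on 5 arrays, or 4 for Gm22193. The other 3 that were lower were well above background in the supernatant on 4 (mmu-miR-331-5p), 5 (mmu-mir-3108) and 6 arrays (mmu-miR-125a-5p). The first 2 ratios therefore rest in part on signals near background. The 2 probes of mmu-miR-125a-5p spread over 2.23 on the log2 scale. Their mean lay below the median probe on WT 1, WT 2, PS19 2 and PS19 3 (log2 -0.19, -0.76, -0.31 and -0.61). It lay above on WT 3 and PS19 1 (0.78 and 0.29). The count of 6 arrays therefore does not show that the mmu-miR-125a-5p ratio is free of signals near background. The fit gave mmu-miR-331-5p a log2 ratio of -2.26 (SE 0.25, adjusted p = 0.0102), the precursor mmu-mir-3108 one of -1.54 and the neural mmu-miR-125a-5p one of -1.57 (SE 0.25 and adjusted p = 0.0493 for both). With the scan as a random block in limma, 4 of the 8 lost their call: 5'tiRNA-37-AsnGTT-2 and Gm22193 (adjusted p = 0.225 for both), mmu-mir-3108 (0.245) and mmu-miR-125a-5p (0.312). With the replicate block in limma, mmu-mir-3108 and mmu-miR-125a-5p lost it (adjusted p = 0.0533 and 0.0771). With normexp background correction 0 were called lower, and without 1 array 3 (WT 1) or 5 (each of the others).

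By class, the centred log2 ratio had a median of 0.60 in 3' tiRNAs (44 of 47 above 0), 0.45 in mitochondrial fragments (41 of 51) and 0.38 in tRF3 (74 of 83), against 0.18 over all 4005 (2861 above 0). It was -0.16 in precursors (44 of 171 above 0), -0.17 in snoRNAs (50 of 148) and -0.16 in other transcripts (23 of 72). With normexp the last 3 medians turned positive (0.0855, 0.10 and 0.11), and those of 3' tiRNAs, mitochondrial fragments and tRF3 shrank to 0.154, 0.149 and 0.125, against 0.049 over all.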

How the data were processed

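The deposited spot intensity values come from Agilent Feature Extraction 11.0.1.1, per the submitters' processing notes. Background subtraction and dye normalisation had been done in that software, per the file headers. The authors' deposited log2 fold changes and p-values, and a deposited table of log2 values, were used only to link names to probes: each of 2380 names matched exactly 1 of 557616 sets of up to 5 neighbouring probes. Control, spike-in and gene probes were left out.

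An RNA's log2 green signal is the mean of its probes, ranked within the array; an RNA with an outlier spot keeps its place but has no rank there. Percentiles, permutation tests and correlations were computed in Python 3.11.15 with scipy 1.17.1. Green against red was fitted with limma 3.58.1 (R 4.3.3; lmFit, eBayes) over RNAs well above background on at least 3 arrays in either channel, with Benjamini-Hochberg adjustment at 0.05. On simulated data for this fit (3842 RNAs) 70% of 2-fold changes were recovered and 6 unchanged RNAs were called. The simulation had independent noise around 0 and 50 changed RNAs at each log2 size from 1 to 4. The data had fewer calls, and ratios of arrays from one scan were correlated (0.59). The 70% is therefore not the share recovered in these data.

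Members, lists and the rule for named RNAs were chosen with earlier results of these data known. Named are the 15 brightest, the 5 brightest of each class, the 8 widest and 8 narrowest ranges, up to 8 per direction between fractions, and up to 6 of each list; mmu-miR-9-5p and the examples from the 24 RNAs in the top 100 on every array were chosen after their values were seen. The number of arrays and the signal over background limit precision.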

Additional observations from a re-analysis of the deposited data

Results flagged for a closer look

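In 37 sets of values over the 6 arrays, 10 held 1 array that lay far from the others by Dixon's ratio at the 95% level, a test that chance passes in about 1 set of 20. WT 1 stood apart in 6. Its median percentile was 50.6 for mature microRNA probes (54.6 to 56.6 on the others) and 44.0 for precursor, tRNA and transcript probes (14.03 to 21.6). Among named RNAs it was 43.7 for mature microRNAs (49.6 to 52.1), 38.4 for 3' tiRNAs (53.2 to 59.8), 78.5 for snoRNAs (41.5 to 51.1) and 76.6 for other transcripts (49.0 to 50.5).

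WT 3 stood apart in the other 4. Its median correlation with the other arrays was 0.799 over probes well above background on all arrays (0.888 to 0.896 on the others) and 0.674 over named RNAs (0.78 to 0.811). The log2 signal above the median probe was 11.56 on WT 3 for 5'tiRNA-35-AlaAGC-1 (9.94 to 10.08 on 3 others) and 11.66 for mmu-miR-7011-5p (9.80 to 10.18 on 4 others).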

How the results depend on the processing

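Classes over all probes kept their direction and call with the median signal as scanned, with normexp and, chosen after seeing the data, with outlier spots kept. Leaving out 1 array gave differences of 18.3 to 23.7 (mature microRNA), 9.44 to 10.9 (tRNA fragment) and -37.6 to -30.7 points (precursor, tRNA and transcript), where an exact permutation test over 5 arrays cannot go below p = 0.0625. The tRNA fragments turned to -16.2 and the precursor, tRNA and transcript probes to 2.33 among probes well above background, and to -2.39 and 1.29 among named RNAs, where mature microRNAs gave 0.44; the cause was not tested. The median correlation between arrays moved to 0.888 among probes well above background and was 0.825 to 0.848 without 1 array. The 24 RNAs in the top 100 on every array became 9 for the top 50, 49 with outlier spots kept and 24 to 36 without 1 array.

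Calls between fractions depended on the settings. Those higher in the supernatant were 10, against 2 without centring, 0 with normexp, 1 with loess, 1 with no filter, 33 with a variance trend, 2 with a genotype term, 0 with the replicate block, 0 with the scan as a random block, 6 with outlier spots kept and 0 to 18 without 1 array (0 without WT 1 or WT 3, 18 without PS19 2). Those lower were 8, against 0 with normexp, 5 with no filter, 3 where both channels had to be well above background, 4 with the scan block and 3 to 5 without 1 array; the other settings stayed within 1.5 times. With the replicate block 6 were lower. About the group means, arrays of one number correlated by -0.23, -0.28 and 0.0888 in their log2 ratios and by 0.125, -0.41 and 0.452 in their supernatant levels. Not every pair was above 0.1 in either, so the numbers were not taken to pair the samples.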

Other observations

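By median rank, later-numbered microRNAs lay higher in the ranking than the first ones to be named. The 427 named mature microRNAs numbered below 1000 had a median rank of 1463, and 11 of them (2.58%) were in the 100 brightest. The 227 numbered from 1000 to below 6000 had a median rank of 1136.5 with 20 (8.81%) in the top, and the 471 numbered 6000 and above had 949.5 with 32 (6.79%). By share in the 100 brightest, the group from 1000 to below 6000 was therefore the highest. Among those with a sequence (366, 202 and 411) the median guanine share was 28.6%, 34.8% and 38.1% in these groups. Within each group brightness still followed guanine, with Spearman correlations over the arrays of 0.372 to 0.44, 0.568 to 0.587 and 0.591 to 0.613.

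Of the 50 brightest mature microRNAs with a sequence, 40 (80%) lay within the span of a protein-coding gene, against 669 of all 987 (67.8%) and 63.1% of the 198 dimmest. In name, 30 of the 50 were 5p arms and 6 were 3p arms, against 488 and 302 of the 987.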
